A study of Homo sapiens with 2 samples.

Results

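Receptor tyrosine kinases are the cell-surface receptors that carry a tyrosine kinase domain inside the cell, and their genes were chosen here by symbol. The rule for the symbols uses no measured value, but the choice was made with earlier results of the arrays described below known. The symbols were those of the Eph receptors, the EGF, HGF, FGF, PDGF, VEGF and insulin receptor families, the TAM receptors (AXL, MERTK and TYRO3), the discoidin domain and neurotrophin receptors, the Wnt-binding receptors and single members such as RET and ALK. They were found on 51 probe sets of 47 genes, out of 16098 named probe sets of 14884 genes. Of the 47 symbols, 4 match the pattern of letters without being receptors (FGFR1OP2, EPHA1-AS1, EPHA5-AS1 and NTRK3-AS1), which left 43 receptors on 47 probe sets. A further 10 receptors that the rule names, ERBB2, PDGFRA, PDGFRB, EPHB2 and TEK among them, were not analysed here. The levels came from 2 Affymetrix whole-transcript arrays of A549 cells, an established human lung adenocarcinoma line, with total RNA taken 24 hours after siRNA transfection. In the siP62 group the cells had received an siRNA against p62/SQSTM1, a receptor of selective autophagy and a signalling scaffold, and in the siCONTROL group a control siRNA. Each group held 1 array, so no difference below has a replicate error or a test, and no p-value is given.

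A receptor tyrosine kinase binds a growth factor or a membrane-bound ligand outside the cell, pairs with another receptor molecule, and phosphorylates tyrosines on its own tail. Adaptor proteins dock on these tyrosines and start the RAS-ERK and PI3K-AKT cascades. Activated receptors are then taken into endosomes, marked with ubiquitin and sorted to the lysosome or back to the surface. In lung adenocarcinoma several of these receptors, EGFR, MET, ALK, RET and ROS1 among them, are known drivers and drug targets.

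Values are log2 array values, and a difference is the siP62 value minus the siCONTROL value on that scale. A gene was kept where the higher of its values reached 5.35, the median of all named probe sets in both arrays, and the other genes are said to lie below the limit. Of the 14884 genes 7896 were kept (53.1%), with a median level of 7.02 in siP62 cells and 6.98 in siCONTROL cells. Their median difference was 0.04 and the robust SD (scaled median absolute deviation) over these genes was 0.22, a spread between genes and not an error. SQSTM1, the siRNA target, had 7.30 in siP62 cells and 8.64 in siCONTROL cells, which is 39.5% of the control level. Of 6 epithelial markers chosen for A549, 5 were measured and all were kept: KRT18, KRT19, KRT7, KRT8 and EPCAM differed by 0.02 to 0.21. Of the surfactant genes that define alveolar type II cells, SFTPC lay below the limit at 4.27 in both arrays, as did SFTPA1, SFTPA2 and NAPSA, another type II marker, while SFTPB (5.30 in siP62 and 5.66 in siCONTROL) and SFTPD (5.27 and 5.85) passed it in siCONTROL cells alone. The endothelial markers PECAM1 (3.14 in siP62 and 2.92 in siCONTROL) and VWF (3.63 and 3.83) lay below the limit. Of the same list, ESAM (6.15 and 5.85) was above the limit in both arrays, and CLDN5 (5.47 and 4.84) passed it in siP62 cells alone. Of the other marker lists 2 of 5 leukocyte, 2 of 5 fibroblast and 2 of 4 neuronal genes were measured, so they say little about cell identity. The leukocyte markers CD68 (8.42 in siP62 and 8.48 in siCONTROL) and CD14 (5.94 and 5.98) were kept. The fibroblast marker LUM (5.49 and 5.02) passed the limit in siP62 cells alone, and DCN lay below it. The neuronal marker SYP was kept and CHGA was not. No array probe can be set against another for level, so receptors are not ranked by abundance below.

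MET and ROR1 were the receptors with the largest differences between the arrays, and they went opposite ways. MET, the receptor of hepatocyte growth factor, had 10.07 in siP62 cells and 8.92 in siCONTROL cells, a 2.22-fold higher level. ROR1, a receptor of the Wnt5a pathway that is active in embryos and in several tumours, had 7.60 in siP62 cells and 8.64 in siCONTROL cells, which is 48.6% of the control level. Both genes were above the limit in both arrays and each was read by 1 probe set. No other receptor reached a 1.5-fold difference among the kept ones. Of all kept genes 13 others differed by at least as much as MET in either direction and 25 others by at least as much as ROR1. Each lay in a bin of 395 kept genes of similar level, in which 1 other gene differed by at least as much as MET and 3 others by at least as much as ROR1. The robust SD of the differences in these bins was 0.18 for MET and 0.22 for ROR1.

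The sequences upstream of the annotated starts of these 2 receptors are shown because they are the promoters of the only receptors past 2-fold. They are the 250 bases before the gene's start in RefSeq on GRCh38.p14, 5′ to 3′ on the strand of the gene, with matches to the SP1 motif GGGCGG in capitals. MET lies on the plus strand (chr7:116671946-116672195) and ROR1 on the plus strand (chr1:63773767-63774016).
MET: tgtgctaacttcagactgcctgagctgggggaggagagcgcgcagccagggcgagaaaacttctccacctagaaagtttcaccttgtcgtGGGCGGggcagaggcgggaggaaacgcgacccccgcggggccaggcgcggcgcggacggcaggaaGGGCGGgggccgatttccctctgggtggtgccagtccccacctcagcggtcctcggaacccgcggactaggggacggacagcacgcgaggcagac
ROR1: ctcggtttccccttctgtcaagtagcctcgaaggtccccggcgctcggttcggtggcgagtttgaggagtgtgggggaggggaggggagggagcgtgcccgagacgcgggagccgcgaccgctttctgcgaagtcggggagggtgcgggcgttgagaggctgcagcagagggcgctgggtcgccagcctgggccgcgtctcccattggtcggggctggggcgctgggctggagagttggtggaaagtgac
Both stretches are rich in G and C, with 68.4% for MET and 69.2% for ROR1, and each holds 24 CG dinucleotides. MET holds the SP1 motif 2 times, 160 to 155 and 95 to 90 bases before the start, whereas these letters are not in the ROR1 window. Across RefSeq the motif is in 42.6% of 35116 such windows, read on both strands. It is in 43 of the 65 windows (66.2%) of the 39 receptors that have one. Receptor windows had a median of 65.2% G and C and all windows 58.0%, and the part of this in the motif share was not tested. Matches to the antioxidant response element TGACNNNGC that NRF2 binds (10.9% of all windows), the AP-1 site TGANTCA (6.6%), the TEAD site GGAATG (11.9%) and the TATA box TATAAA (10.7%) were in neither the MET nor the ROR1 window. The antioxidant response element and the AP-1 site can overlap. In receptors the antioxidant response element was in 4 of 65 windows, those of AXL, EPHA7 and TYRO3 among them, the AP-1 site in 4, the TEAD site in 6 and the TATA box in 5. A match is a run of letters and does not show that a factor binds.

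As a group the receptors had the same median difference as all kept genes. Of the 43 receptors 19 were kept (44.2%). The median was 0.04 over the 19 and over all 7896 kept genes, with an interquartile range from -0.06 to 0.175 for the receptors and from -0.11 to 0.18 for all kept genes. MET was the 1 receptor at least 1.5-fold higher in siP62, against 2.08% of all kept genes, and ROR1 the 1 receptor at least 1.5-fold lower, against 1.6%. At 2-fold the counts were again 1 higher and 1 lower, where 0.165% of all kept genes were 2-fold higher and 0.228% 2-fold lower. In either direction together, 2 of 19 receptors were past 1.5-fold and past 2-fold, beside 3.67% and 0.393% of all kept genes. With 2 receptors in question these shares rest on MET and ROR1 alone. Of the 19 receptors 13 were above 0 and 6 below, and 9 were above the median of all kept genes. The 13 include MST1R, whose 2 probe sets went opposite ways. Of all 7896 kept genes 4379 were above 0, 3302 below and 215 equal. Among the 19, 2 passed the limit in siP62 alone and 1 in siCONTROL alone, so the filter set their side. Within 0.2 of 0 on the log2 scale lay 13 receptors (68.4%) and 62.4% of all kept genes.

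**Figure D1:**
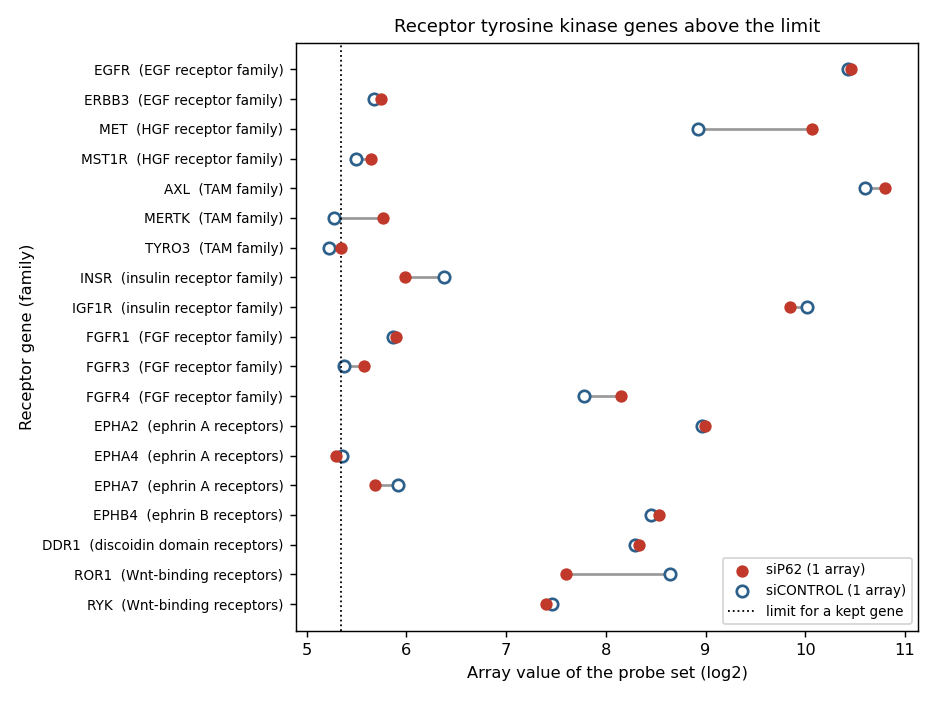
Array values (log2) of the 19 kept receptor genes, ordered by family, in siP62 (filled red) and siCONTROL (open blue), 1 array each, with the limit for a kept gene at 5.35 as a dotted line. MET lies to the right in siP62 (10.07 against 8.92), ROR1 to the left (7.60 against 8.64), and the other pairs lie close together. Levels of different genes come from different probes and are not comparable.

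The EGF receptor family, which binds EGF and its relatives, was nearly level. EGFR had 10.46 in siP62 cells and 10.43 in siCONTROL cells, a difference of 0.03. ERBB3, which has an impaired kinase and signals through its partners, had 5.75 and 5.68, a difference of 0.07. ERBB4, a neuregulin receptor, lay below the limit with 3.03 in siP62 and 3.14 in siCONTROL. The values of all 3 measured members thus lay within 0.11 of each other between the arrays.

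The other member of the HGF receptor family did not share the difference of MET. MST1R, the receptor of macrophage-stimulating protein, had 5.65 in siP62 cells and 5.50 in siCONTROL cells. Its second probe set went the other way, with 4.88 in siP62 and 5.17 in siCONTROL, a difference of -0.29, so that no direction can be given for MST1R. With the mean of both probe sets the gene fell below the limit.

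All 3 TAM receptors, which bind GAS6 and take part in the clearance of dying cells, had higher values in siP62. AXL had 10.80 in siP62 cells and 10.60 in siCONTROL cells, a difference of 0.20. MERTK had 5.77 and 5.28, a difference of 0.49. TYRO3 had 5.35 in siP62 and 5.23 in siCONTROL, a difference of 0.12. The siCONTROL values of MERTK and TYRO3 lay below the limit, so that the size of their differences is uncertain. Both were kept through siP62 alone, so as kept genes they could only be higher there. AXL alone was above the limit in both arrays. None of the 3 reached 1.5-fold, and 45 other genes in the bin of MERTK and 95 in that of AXL differed by at least as much.

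Both receptors of the insulin family had lower values in siP62. INSR, the insulin receptor, had 5.99 in siP62 cells and 6.38 in siCONTROL cells, a difference of -0.39, and 41 other genes of its bin differed by at least as much. IGF1R, the receptor of insulin-like growth factors, had 9.85 and 10.02, a difference of -0.17, with 123 such genes. Neither reached 1.5-fold.

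Of the FGF receptors, which need heparan sulfate or Klotho proteins to bind their ligands, FGFR4 differed most. FGFR4, the receptor of FGF19 in the liver, had 8.15 in siP62 cells and 7.78 in siCONTROL cells, a difference of 0.37, and 38 other genes of its bin differed by at least as much. FGFR3 had 5.58 and 5.38, a difference of 0.20, and FGFR1 5.90 and 5.87, a difference of 0.03. FGFR2, with 3.76 in siP62 and 4.23 in siCONTROL, lay below the limit in both arrays. All 3 kept FGF receptors were thus above 0, FGFR1 by less than the median of all kept genes.

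**Figure D2:**
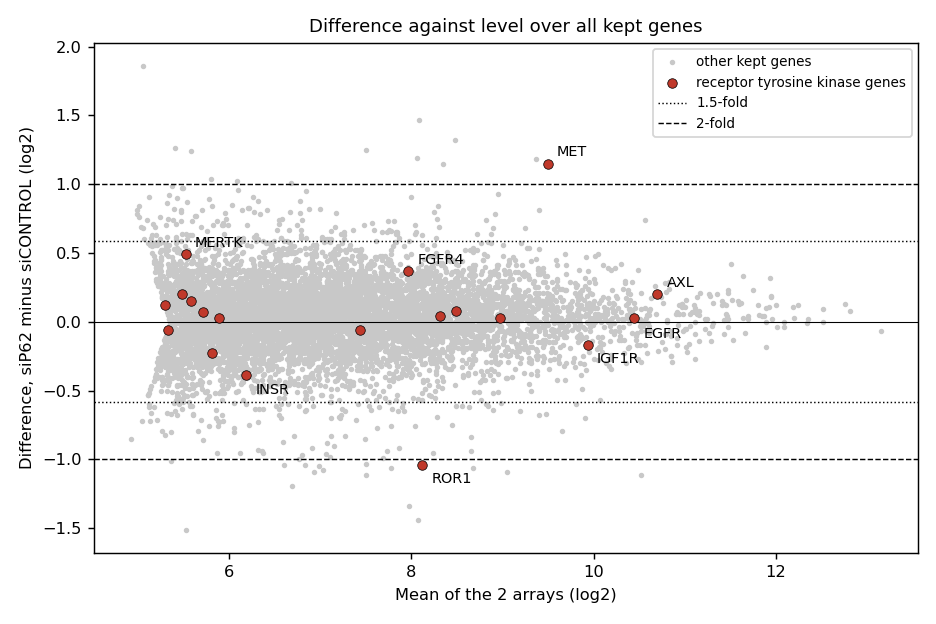
Difference (siP62 minus siCONTROL, log2) against the mean of both arrays (log2) for all 7896 kept genes in grey and the 19 receptors in red, with lines at 1.5-fold and 2-fold. MET (1.15) and ROR1 (-1.04) lie beyond the 2-fold lines, and the other receptors lie inside the 1.5-fold lines.

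The Eph receptors, which bind membrane-bound ephrins on neighbouring cells, are the largest family and most of them lay below the limit. Of 13 measured, 4 were kept and their differences ran from -0.23 to 0.08. EPHA2, the Eph receptor best known from epithelial tumours, had 8.99 in siP62 cells and 8.96 in siCONTROL cells. EPHB4, the receptor of ephrin-B2 in vessel development, had 8.53 and 8.45. EPHA7 had 5.69 and 5.92, a difference of -0.23. EPHA4 had 5.30 in siP62, below the limit, and 5.36 in siCONTROL. For each of the 4, at least 136 other genes of its bin differed by as much.

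The discoidin domain receptors bind collagen. DDR1, the epithelial form, was read by 4 probe sets that all differed by 0.04. In 2 of them the values were 8.33 in siP62 and 8.29 in siCONTROL, and in the other 2 they were 8.04 and 8.0. Since both pairs hold equal values they do not count as independent readings. DDR2, the form known from connective tissue, had 3.90 and 3.31. Its difference of 0.59 was the largest of a receptor below the limit.

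Among the receptors that bind Wnt proteins ROR1 was alone in its large difference. RYK, whose kinase is impaired, had 7.40 in siP62 cells and 7.46 in siCONTROL cells. ROR2, the closest relative of ROR1, lay below the limit with 3.99 and 4.34, a difference of -0.35. PTK7, a receptor of planar cell polarity with an inactive kinase, lay below it too with 4.97 and 5.19. All 4 were lower in siP62, but 1 of them by 0.06 and 2 of them on values below the limit.

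The 24 receptors below the limit had values from 2.69 to 4.97 in siP62 cells and from 2.78 to 5.19 in siCONTROL cells. No detection call came with the arrays, so these genes are not shown to be expressed and no fold is given for them. Of the 24, 11 were above 0, 10 below and 3 equal, with a median of 0.00, beside -0.02 for all 6988 genes below the limit. A difference of at least 0.585, the size counted for kept genes, was reached upward by DDR2 alone, as by 2.02% of the genes below the limit, and downward by none, against 2.75% of those genes. At these values such a difference may lie within the background. The receptors known from vessels lay here, namely KDR, FLT1 and FLT4, which bind VEGFs, and TIE1, with differences of -0.16 to 0.05. So did the receptors of blood cells and their precursors: KIT had 2.92 in siP62 and 3.01 in siCONTROL, CSF1R had 4.30 in both and FLT3 had 3.21 in both. The lung cancer drivers ALK (3.58 in siP62 and 3.82 in siCONTROL) and RET (4.40 and 4.33) lay below the limit, as did LTK (4.58 and 4.40). Of the Eph receptors below it, EPHA5 (4.51 and 4.11) and EPHB1 (4.07 and 3.70) had the largest differences, 0.40 and 0.37. The 4 symbols that are no receptors also lay below the limit. FGFR1OP2, named for a fusion partner of FGFR1, had 4.97 in siP62 and 4.73 in siCONTROL. The antisense RNA genes EPHA1-AS1, EPHA5-AS1 and NTRK3-AS1 differed by -0.14, -0.18 and -0.58.

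**Figure D3:**
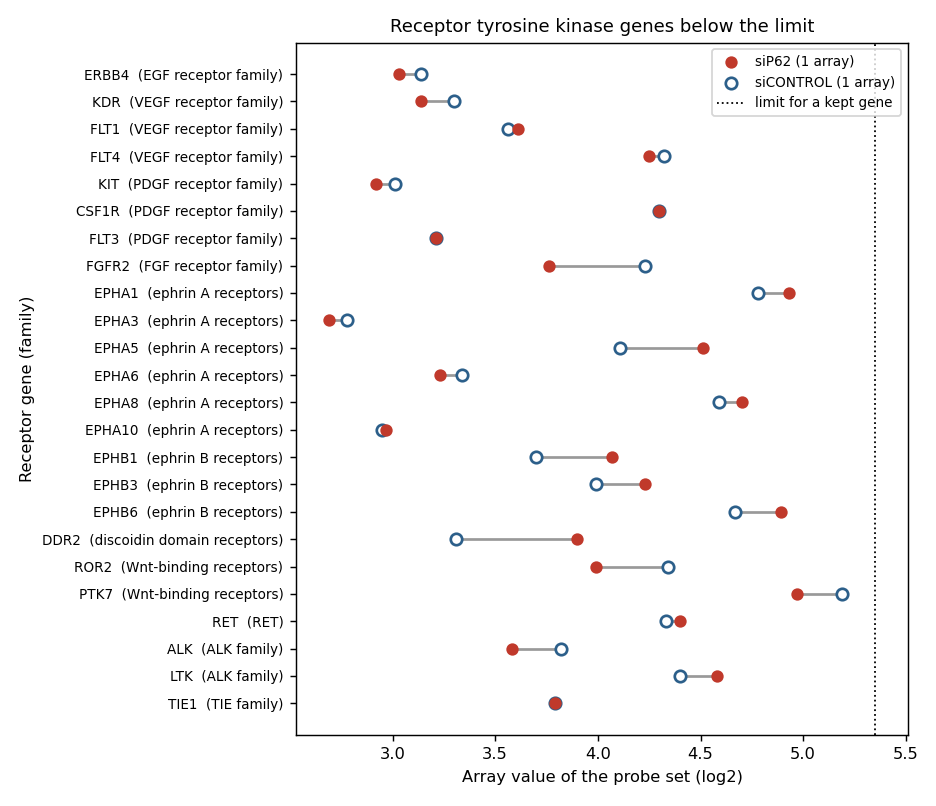
Array values (log2) of the 24 receptor genes below the limit of 5.35 (dotted line), by family, in siP62 (filled red) and siCONTROL (open blue), 1 array each. DDR2 has the widest gap (3.90 against 3.31), and CSF1R, FLT3 and TIE1 have equal values in both arrays.

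The ligands of these receptors were taken from a list of 68 genes, of which 57 were measured and 30 kept. Their median difference was 0.065, with 3 at least 1.5-fold higher in siP62 (2.08% of all kept genes were) and none lower (1.6% were). PDGFD, which acts on the PDGF beta receptor, had 8.17 in siP62 cells and 7.56 in siCONTROL cells. FGF18 had 5.70 and 4.95, and the ephrin EFNA3 had 5.95 and 5.22, both from a siCONTROL value below the limit. Both were kept through siP62 alone, so they could count only on the higher side. Of the 3, PDGFD alone was above the limit in both arrays. Of the other ephrins, EFNA1 differed by 0.44, EFNA4 by 0.36 and EFNA2 by -0.34. EREG, an EGF receptor ligand, differed by 0.30, the vessel growth factor VEGFC by -0.39 and GDF15, the ligand of GFRAL, by -0.31. The ligands of MET and MST1R, named here after their values were seen, lay below the limit. HGF had 2.88 in both arrays, and MST1 had 4.43 in siP62 and 4.53 in siCONTROL.

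Co-receptors and the proteases that shed receptors or ligands included members on both sides. Of 29 fixed, 28 were measured and 21 kept, with a median difference of -0.03, 1 past 1.5-fold on the higher side (2.08% of all kept genes were) and 2 on the lower side (1.6% were). GFRA1, which presents GDNF to RET, had 8.11 in siP62 cells and 7.38 in siCONTROL cells, 1.66-fold higher, while RET itself lay below the limit. IGF2R, which takes IGF2 to the lysosome, had 8.32 and 8.94, a difference of -0.62. ADAM10, a protease that sheds several receptors and ligands, had 9.51 and 10.11, a difference of -0.60. CD44, a hyaluronan receptor whose variant forms act with MET, had 6.85 in siP62 and 7.39 in siCONTROL, a difference of -0.54. FZD5, GPC1 and RHBDF2 differed by 0.33, 0.23 and 0.20.

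Of the genes that act inside the cell, the adaptors and effectors and the negative regulators each had a median close to that of all kept genes. Of 57 adaptor and effector genes 37 were measured and 31 kept, with a median difference of 0.05. None was past 1.5-fold in either direction, beside 3.67% of all kept genes. A count of 0 in a list of this size is close to that share and does not set the list apart. GRB2, the adaptor that brings SOS to activated receptors, had 8.48 in siP62 cells and 8.20 in siCONTROL cells. VAV1 differed by -0.38, MAP2K2 by 0.37 from a siCONTROL value below the limit, BCAR3 by -0.31, STAT5A by 0.31 and STAT3 by -0.25. Of 51 negative regulators 28 were measured and 25 kept, with a median of 0.05 and again none past 1.5-fold, beside the same 3.67%. The median size of a difference, whatever its direction, was 0.19 for the negative regulators and 0.15 for the adaptors and effectors, beside 0.15 for the receptors and for all kept genes. ERRFI1, which binds and inhibits EGF receptors, had 9.05 and 9.42, a difference of -0.37, and LRIG1, which lowers the level of several receptors, differed by -0.27. SOCS4 and SOCS5, which act on cytokine and EGF receptors, differed by -0.43 and -0.32. RNF41, the ubiquitin ligase of ERBB3, and SH3KBP1, a partner of CBL, differed by 0.31 and 0.28.

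Genes that take receptors into endosomes and sort them had a median difference of 0. Of 52 fixed, 32 were measured and 31 kept, with a robust SD of 0.12 and none past 1.5-fold, beside 3.67% of all kept genes. EPS15L1, an endocytic adaptor, had the largest difference, with 7.80 in siP62 cells and 8.20 in siCONTROL cells. SNX1 of the retromer group differed by 0.27, STAM2 of the ubiquitin-sorting complex by 0.23, the ESCRT subunit VPS36 by -0.24 and the epsin EPN3 by 0.21.

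Genes that respond to ERK, the cascade below these receptors, went both ways. The list held 21 genes, EPHA2 and EPHA4 among them, and all 18 measured were kept. Their median difference was -0.10, with 6 above 0, 11 below and 1 equal, beside 4379, 3302 and 215 of all 7896 kept genes. IL11 was the 1 gene at least 1.5-fold lower (1.6% of all kept genes were), with 7.66 in siP62 cells and 8.42 in siCONTROL cells. FOS differed by -0.49, the ETS factor ETV5 by -0.48, FOSL1 by -0.42 and HBEGF by -0.25. The siP62 values of HBEGF and EPHA4 lay below the limit, so both were kept through siCONTROL alone. EGR1 differed by 0.48 from a siCONTROL value below the limit, and the inhibitor SPRY4 by 0.25.

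**Figure D4:**
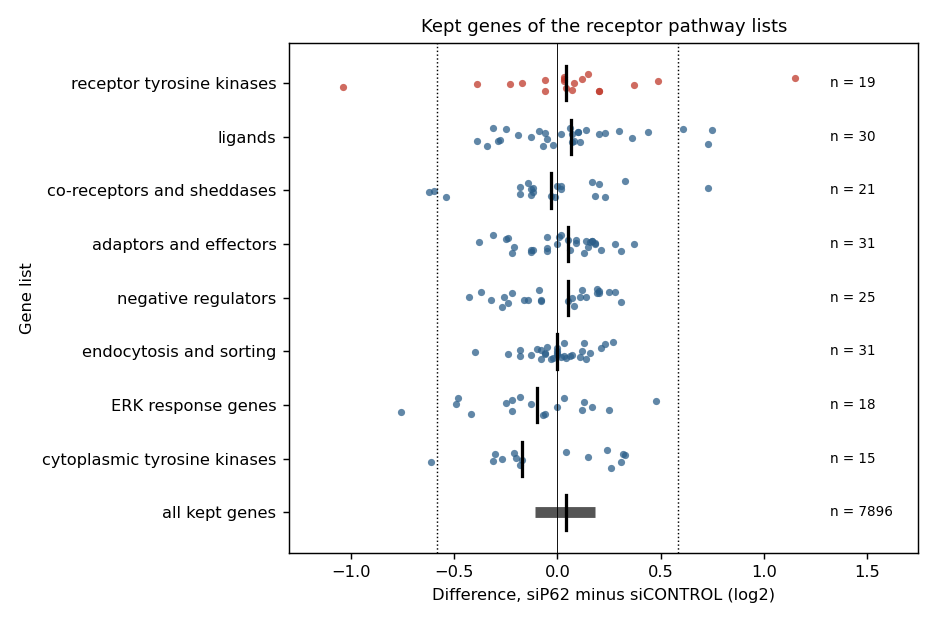
Difference (siP62 minus siCONTROL, log2) of each kept gene of the receptors (red) and of the other pathway lists (blue), 1 point a gene, with the median as a black bar. For all kept genes the grey bar spans the interquartile range. Dotted lines mark 1.5-fold, and MET and ROR1 are the outermost receptor points.

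Of the 6 other ways of processing the table, 3 could not alter MET or ROR1, since the filters and the averaging of probe sets leave a gene with 1 probe set above the limit as it is. Under the other 3, which rescale the arrays against each other, MET lay between 1.11 and 1.115 and ROR1 between -1.09 and -1.08, past 2-fold in each. Subtraction of the median moves all genes alike, so that little change was possible there. Quantile normalization had little room too, since the processing named for the deposited values commonly makes the distributions of arrays alike. MERTK lay between 0.45 and 0.49, FGFR4 between 0.32 and 0.37 and INSR between -0.43 and -0.39, in the settings that kept them. Receptors near 0 had no stable side: EGFR, EPHA2 and FGFR1 lay above 0 in the deposited values, and below 0 after the median of all kept genes was taken off.

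**Figure D5:**
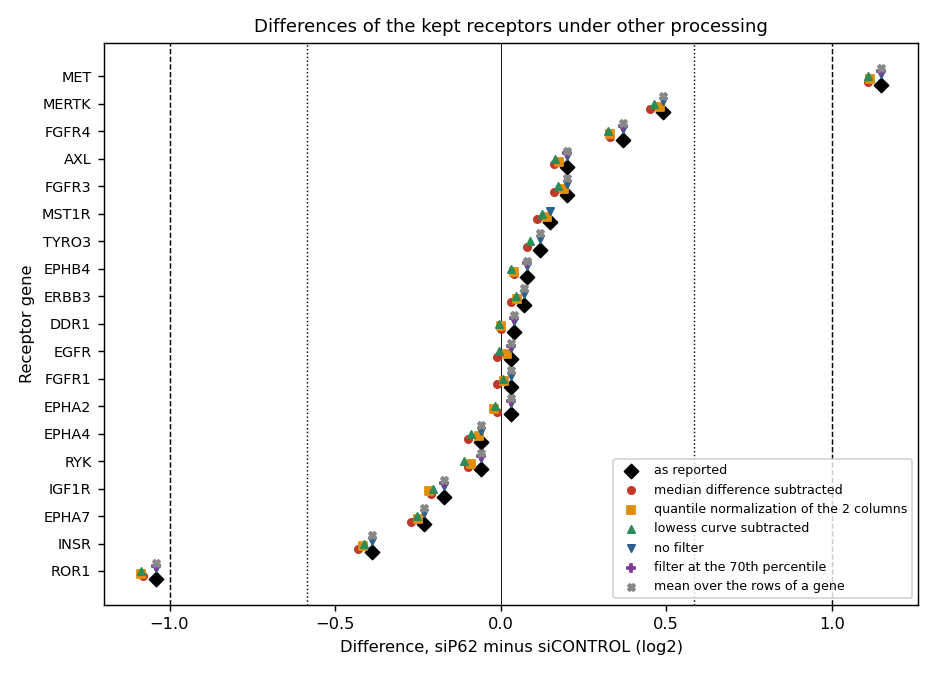
Difference (siP62 minus siCONTROL, log2) of each kept receptor as reported (black diamond) and under 6 other ways of processing (coloured marks), with lines at 1.5-fold (dotted) and 2-fold (dashed). MET and ROR1 stay outside the 2-fold lines in all settings, and the marks of each receptor lie close together.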

How the data were processed

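The deposited table gave, for each of 48226 probe sets, a log2 value on either array to 2 decimals. The submitters' processing notes name Transcriptome Analysis Console 4.0.2.15 and RMA for these values. RMA as commonly defined makes the distributions of the arrays alike, so a shift of all genes would not be seen. The arrays that entered that step, and the genome build behind the probes, were not given in the sources used here. Biotinylated cDNA was made from 100 ng of total RNA, per the labels' protocols.

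The platform annotation gave 1 symbol for 16098 probe sets and the other 32128 were not used. Where a gene had several probe sets, the one of highest mean was taken. Differences were computed in Python 3.11.15 with pandas 2.3.3 and counted at 1.5-fold and 2-fold, without a test, and the kept genes were put in 20 bins of similar mean level. The counting was tested on simulated data with planted differences larger than those of MET and ROR1. That run says nothing about genes near the 2-fold line. Promoter windows were read from a RefSeq table.

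The receptors and the 7 pathway lists (307 genes) were chosen with earlier results of these arrays known. All receptors may be named. Of each list the genes past 1.5-fold and up to 6 further kept genes of largest absolute difference are named, and every marker measured may be. With 2 arrays in all, their number limits the precision.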

Additional observations from a re-analysis of the deposited data

How the results depend on the processing

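The 6 alternatives were subtraction of the median difference, quantile normalization of both columns, subtraction of a lowess curve (fraction 0.3), no filter, a filter at the 70th percentile, and averaging of all probe sets of a gene. The filters and the averaging could not alter a kept gene with 1 probe set. The counts at 2-fold stayed at 1 higher and 1 lower in each, as did the count at 1.5-fold lower. Without a filter 2 receptors counted as at least 1.5-fold higher, since DDR2 then entered on values below the limit. The median over the kept receptors lay between 0.00 and 0.04. The stricter filter left 10 receptors. Quantile normalization left 18, without TYRO3, and averaging left 18, without MST1R. After the median was subtracted 9 receptors were above 0 and 9 below. No kept receptor moved by as much as the robust SD of its level bin, in the settings that kept it. Subtraction of the median moved each gene by 0.04, and the lowest bin SD was 0.15, so nothing else was possible there. No paired analysis was possible because each group holds 1 array. No detection call came with the values, so the limit of 5.35 is a rule of this table and does not separate signal from background.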

Other observations

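Tyrosine kinases without a receptor part were set beside the receptors as the most similar list. Of 32 cytoplasmic tyrosine kinases 25 were measured and 15 kept, with a median difference of -0.17, 7 above 0 and 8 below. The next higher value in this list was 0.04, so its median rests on the middle gene. Of all 7896 kept genes 4379 were above 0, 3302 below and 215 equal, with a median of 0.04. The median of the 19 kept receptors was 0.04. FRK, a SRC-related kinase of epithelia, was the 1 cytoplasmic kinase at least 1.5-fold lower in siP62 (1.6% of all kept genes were). It had 7.23 in siP62 cells and 7.84 in siCONTROL cells. No cytoplasmic kinase was 1.5-fold higher, beside 2.08% of all kept genes. JAK2 differed by 0.33, CSK, which switches off SRC kinases, by 0.32 and LYN by 0.31. ABL2 differed by -0.31, SRMS by -0.30 and MATK by -0.27. With 1 array a group the difference between the lists was not tested.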
